A study of Mus musculus with 32 samples.

Results

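The genes described here are the cytochrome P450 genes, the UDP-glucuronosyltransferase (UGT) genes and the glutathione transferase genes of the mouse, the enzymes that oxidise small molecules and then join them to a sugar acid or to glutathione. They were taken by symbol alone, without regard to any measured value: Cyp genes other than the retinoic acid hydroxylases of the Cyp26 group, Ugt genes of families 1 to 3, glutathione transferases (GST) of the alpha, mu, pi, theta, omega, zeta and kappa classes, and microsomal glutathione transferases (MGST). This rule took 144 genes of the 55806 identifiers in the count tables, of which 98 are P450, 21 are UGT, 22 are GST and 3 are MGST genes. All but 1 are annotated as protein coding, the exception being the antisense gene Cyp4x1os, and 31 symbols marked as pseudogenes were left out. All 144 stood in each of the 4 tables. Cyp2c29, Cyp2c39, Cyp2c50, Cyp2c54, Cyp3a59, Ugt2a1 and Ugt2a2 were at 0 in every library.

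P450 enzymes are haem proteins that take electrons from a reductase and insert an oxygen atom into drugs, fatty acids, sterols or vitamin D. UGT enzymes then attach a sugar, most often glucuronic acid, and glutathione transferases attach glutathione, after which the product is water soluble and can be exported. In the kidney much of this chemistry belongs to the proximal tubule, the nephron segment that takes up and secretes most solutes and that makes active vitamin D, whereas transferases of the pi and mu classes are found in many cell types.

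The study asked what mutant forms of ENL, a reader of acetylated histones encoded by Enl (symbol Mllt1) and mutated in Wilms tumor, do to the developing mouse kidney. Mice of the C57BL/6J background carried 1 floxed Enl allele in which Cre switches transcription from wild type to a mutant exon. T1 is the 117_118insNHL insertion and T3 the 111_113NPP>K change. Whole E18.5 kidneys came from Six2-TGCtg/+;Enl+/+ (WT), Six2-TGCtg/+;EnlT1/+ (T1) and Six2-TGCtg/+;EnlT3/+ (T3) embryos, with 2 libraries each, and from Foxd1GC/+;Enl+/+ and Foxd1GC/+;EnlT1/+ embryos, with 3 each. Cells labelled by the LSL-tdT reporter were sorted from Six2-TGC kidneys at E14.5 and at E18.5, with 3 WT and 3 T1 libraries per stage, and from Foxd1-GC kidneys at E18.5, with 4 WT and 4 T1 libraries. Every control carried the Cre allele of its line together with wild type Enl. Six2-TGC is a transgene that expresses a GFP-Cre fusion in nephron progenitors, so the mutation is present in these cells and the nephron epithelium they form, while Foxd1-GC is a knock-in that drives Cre in stromal progenitors and removes Foxd1 from that allele. A whole kidney also holds cells that the Cre does not reach. Cells were released with trypsin at E14.5 and with collagenase at E18.5, so that stage and dissociation cannot be told apart. The labels do not say whether libraries of a group came from separate embryos, and p values measure the spread between these libraries, which may be in part technical.

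Promoter sequence is shown first, because the genes with the highest levels in WT whole kidneys and the genes with letters of known factors can be compared directly. RefSeq windows from 250 bases before to 50 bases after the transcript start (GRCm38.p6) were at hand for 117 of the 144 genes. The first 4 lines give the windows of 4 of the 5 genes that led the WT Six2 whole kidneys per kilobase of unshared exon. They are given on the gene's own strand, with any motif searched for in capitals. Among them only the Gsta2 window held one, the dioxin response letters TNGCGTG.
Gsta2 (chr9:78347096-78347395, minus strand): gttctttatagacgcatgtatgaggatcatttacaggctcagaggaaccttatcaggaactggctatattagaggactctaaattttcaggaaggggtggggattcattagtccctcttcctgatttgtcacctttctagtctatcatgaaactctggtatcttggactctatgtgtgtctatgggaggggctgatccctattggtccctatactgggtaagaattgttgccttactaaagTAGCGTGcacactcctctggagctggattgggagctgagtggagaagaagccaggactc
Ugt1a2 (chr1:88200361-88200660, plus strand): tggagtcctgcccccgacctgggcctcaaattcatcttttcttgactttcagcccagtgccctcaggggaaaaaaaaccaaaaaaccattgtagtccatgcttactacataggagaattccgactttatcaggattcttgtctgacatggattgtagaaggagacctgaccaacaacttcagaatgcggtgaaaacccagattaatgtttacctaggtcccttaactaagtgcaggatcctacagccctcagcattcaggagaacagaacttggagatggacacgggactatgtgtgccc
Cyp2j5 (chr4:96664070-96664369, minus strand): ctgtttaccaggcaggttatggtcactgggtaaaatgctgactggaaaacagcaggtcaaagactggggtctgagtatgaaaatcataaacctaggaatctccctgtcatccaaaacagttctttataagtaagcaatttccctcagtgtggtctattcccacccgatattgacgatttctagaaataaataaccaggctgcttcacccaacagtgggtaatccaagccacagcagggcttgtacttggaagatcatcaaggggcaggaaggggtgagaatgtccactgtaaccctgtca
Cyp2d26 (chr15:82794196-82794495, minus strand): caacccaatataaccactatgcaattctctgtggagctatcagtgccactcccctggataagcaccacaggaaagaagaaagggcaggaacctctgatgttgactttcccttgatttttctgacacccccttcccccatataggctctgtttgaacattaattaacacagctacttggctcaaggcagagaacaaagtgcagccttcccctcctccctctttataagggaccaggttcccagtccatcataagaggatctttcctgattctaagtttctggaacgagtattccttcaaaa

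HNF1 and HNF4 factors are regulators of proximal tubule and liver genes. On either strand, the HNF1 letters GTTAATNAT stood in 6 of the 117 windows (5.13%) and in 0.94% of the windows of all 27025 genes. The HNF4 letters CAAAGTCCA stood in 11 (9.40%) and 0.555%. Of these 11, Cyp2c40, Cyp2c67, Cyp2c68 and Cyp2c69 have nearly the same bases around the letters. Cyp3a16, Cyp3a41a and Cyp3a41b have the same bases there. Matches in such similar genes are not independent, which limits the comparison with all genes. The antioxidant response letters TGACNNNGC stood in 11 windows (9.40%), against 14% of all genes, and the dioxin response letters in 3 (2.56%), against 5.84%. The motifs were searched one by one, the antioxidant and dioxin letters can overlap at their shared GC, and a match is a description of the sequence only. Of the genes that were lower in T1 whole kidneys, in T3 whole kidneys and in T1 sorted cells at E18.5, 15 had a window, and the HNF1 letters stood in 3 of these.

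The HNF4 letters stood in none of those 15 genes. They stood in 7 of 10 genes that were counted mainly in the 2 whole kidney libraries with liver RNA, as described with those libraries, and 5 of these are shown on the gene's own strand, with the HNF4 letters in capitals.
Cyp2c68 (chr19:39741160-39741188): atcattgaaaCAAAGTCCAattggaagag
Cyp2c40 (chr19:39812841-39812869): atcattgagaCAAAGTCCAtttggaagag
Cyp2c70 (chr19:40187332-40187360): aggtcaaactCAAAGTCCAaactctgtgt
Cyp3a16 (chr5:145469804-145469832): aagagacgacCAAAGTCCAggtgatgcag
Cyp3a11 (chr5:145879945-145879973): aagagagtacCAAAGTCCAgtgatgcaaa

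Total counts were 106005614 to 157266455 in Six2 whole kidneys, 67137194 to 79343015 in Foxd1 whole kidneys, 115625561 to 137888792 and 76510702 to 92026288 in sorted Six2 cells at E14.5 and E18.5, and 2557443 to 3508381 in sorted Foxd1 cells. Mllt1, whose mutant allele is transcribed from its own promoter, does not check the genotype by its level: it was 89.3 and 105 counts in each 1000000 (CPM) in the 2 Six2 WT whole kidneys, 82.3 and 79.7 in T1 and 77.7 and 76.5 in T3. Libraries differed in the sex of the embryo. The Y-linked gene Ddx3y was above 1 CPM in WT number 1 but not WT number 2, in both T1 and in neither T3 library of the Six2 whole kidneys, in 0 of 6 Foxd1 whole kidneys, in all 8 sorted Foxd1 libraries, in 1 of 3 libraries of each genotype in sorted Six2 cells at E18.5, and in 1 of 3 WT and 2 of 3 T1 libraries at E14.5. T3 and T1 whole kidneys therefore differ in sex as well as in allele, and these cannot be told apart. RNA of liver genes stood out in 2 Six2 whole kidney libraries, with 9913 counts of the albumin gene Alb in T1 number 2 and 2643 in T3 number 2, against 62 to 261 in the other 4. The liver gene Ahsg had 2513 and 664 counts there, against 23 to 97 in the others. Fga had 1249 in T1 number 2, but its 374 counts in T3 number 2 were below the 464 and 504 of the WT libraries. In bulk RNA, fewer cells of a type and less RNA per cell cannot be told apart.

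Among these genes the alpha class transferase Gsta2 and the UGT Ugt1a2 had the highest levels in WT whole kidneys, per kilobase of unshared exon. Unshared exon is the exon length that a gene does not have in common with another gene. Much of the Ugt1a2 exon length is shared and was left out of the divisor. Its level and rank therefore depend on this divisor and on how shared reads were counted. In the Six2 line Gsta2 stood at 132 ± 49.7 CPM per kb (SD, n = 2), Ugt1a2 at 109.7 ± 39.7, the arachidonic acid epoxygenase Cyp2j5 at 78.8 ± 26.3, the lipid aldehyde transferase Gsta4 at 63.9 ± 6.39 and Cyp2d26 at 48.8 ± 4.97. With SDs this wide over 2 libraries, the order of the first 3 is not resolved. In the Foxd1 line the first 2 were the same, with Gsta2 at 116 ± 6.17 and Ugt1a2 at 84.2 ± 16.6 (SD, n = 3), followed by Cyp27b1, which makes active vitamin D, at 71.5 ± 1.16, Cyp2j5 at 69.4 ± 4.35 and Cyp2d26 at 67.8 ± 5.92.

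Sorted cells were led by other genes. In WT Six2 cells at E14.5 the pi class Gstp1 stood at 99.2 ± 1.40 CPM per kb (SD, n = 3), the mu class Gstm5 at 69.3 ± 0.317, Gsta4 at 52.9 ± 3.90, the lanosterol demethylase of cholesterol synthesis Cyp51 at 32.3 ± 2.75 and Gstm1 at 24.9 ± 1.02. At E18.5 Cyp51 was first at 43.6 ± 2.57, before Gsta4 at 36.2 ± 2.46, Gstp1 at 30.6 ± 1.94, Gstm5 at 30.5 ± 0.327 and Gsta2 at 27.6 ± 5.00. Gstp1, Gstm5 and Gsta2 did not differ beyond their spread there. In sorted Foxd1 cells all 5 leading genes were transferases: Gstp1 at 263 ± 25.5 CPM per kb (SD, n = 4), Gstm5 at 150.3 ± 12.3, Gstm2 at 146 ± 12.2, Gstm1 at 108 ± 13.1 and Gsta4 at 97.1 ± 9.61. Levels of different experiments were scaled within their own tables and are set side by side without a test.

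Summed by family, the UGT genes were nearly absent from sorted Six2 cells at E14.5, with 0.499 to 4.04 CPM in the WT libraries, and reached 84.0 to 113 CPM at E18.5. The GST sum was lower at the later stage, going from 508 to 534 CPM at E14.5 to 320 to 349 CPM at E18.5. In Six2 whole kidneys the P450 sum was 887 and 1149 CPM in WT, 493 and 521 in T1 and 460 and 481 in T3. The UGT sum was 184 and 295 CPM in WT, 94.4 and 100 in T1 and 78.4 and 96.7 in T3, and the GST sum was 620 and 765, 443 and 454, and 424 and 449 CPM. These 3 sums were higher in both WT libraries than in every mutant library, whereas the MGST sum, at 98.01 and 102, 105 and 105, and 97.3 and 103 CPM, was not. The summed level of all these genes was 0.173% and 0.224% of the counts in the 2 WT libraries and 0.108% to 0.118% in the 4 mutant libraries.

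The Six2 whole kidneys address what each mutation in nephron progenitors does to the kidney as a whole. T1 and T3 were each tested against the same 2 WT libraries, so that the results of these 2 comparisons are not independent, and calls needed an adjusted p under 0.05 with a change of more than 1.5-fold. In T1, 30 of 91 tested genes fell and 2 rose, where 4.88% of all 23931 genes tested fell and 2.88% rose. Without T1 number 2 the T1 count was 21, all lower. In T3, 33 of the 91 fell and 3 rose, against 5.28% and 4.34% of all genes. The median log2 difference of the 91 genes was -0.40 in T1 and -0.43 in T3, while the medians of all genes were -0.01 and -0.00. By family, 14 of 51 P450, 10 of 17 UGT, 6 of 20 GST and 0 of 3 MGST genes fell in T1, and 16, 11, 6 and 0 fell in T3. The libraries of WT and mutant did not overlap for any of the called genes. With 2 libraries a group this mostly follows from the call itself and adds no support to it. The 20 fixed marker genes of the proximal tubule moved in the same direction, with 20 of 20 called lower in each mutant and a summed level of 3967 and 5027 CPM in WT, 650 and 819 in T1 and 642 and 681 in T3. Their part in the results was not tested.

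Of the enzymes of vitamin D, Cyp27b1 and Cyp24a1 fell, while Cyp2r1 and Cyp27a1, which act a step earlier, were not called in T1 (0.30 ± 0.16 and 0.093 ± 0.16) or T3 (0.20 ± 0.16 and 0.45 ± 0.16). Cyp27b1 makes the active hormone, and it stood at 122 and 71.5 CPM in the WT libraries, 3.57 and 6.20 in T1 and 7.62 and 8.89 in T3. Every mutant library was far below both WT libraries, and WT number 1 was higher than WT number 2. The log2 difference was -4.32 ± 0.33 (SE, adjusted p = 0.000214) for T1 and -3.55 ± 0.32 (adjusted p = 0.000354) for T3. Cyp24a1, which breaks the hormone down, was 46.4 and 9.98 CPM in WT, 2.04 and 3.40 in T1 and 1.64 and 3.27 in T3. Its groups were separate as well, but the WT libraries were far apart. The log2 difference was -3.38 ± 0.69 (adjusted p = 0.0163) in T1 and -3.52 ± 0.70 (adjusted p = 0.0128) in T3, and it was no longer called when 1 mutant library was left out: in T1 it was -3.03 (adjusted p = 0.126) without T1 number 1 and -3.77 (adjusted p = 0.0837) without T1 number 2, and in T3 -3.09 (adjusted p = 0.0970) without T3 number 1 and -4.09 (adjusted p = 0.0548) without T3 number 2.

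**Figure D1:**
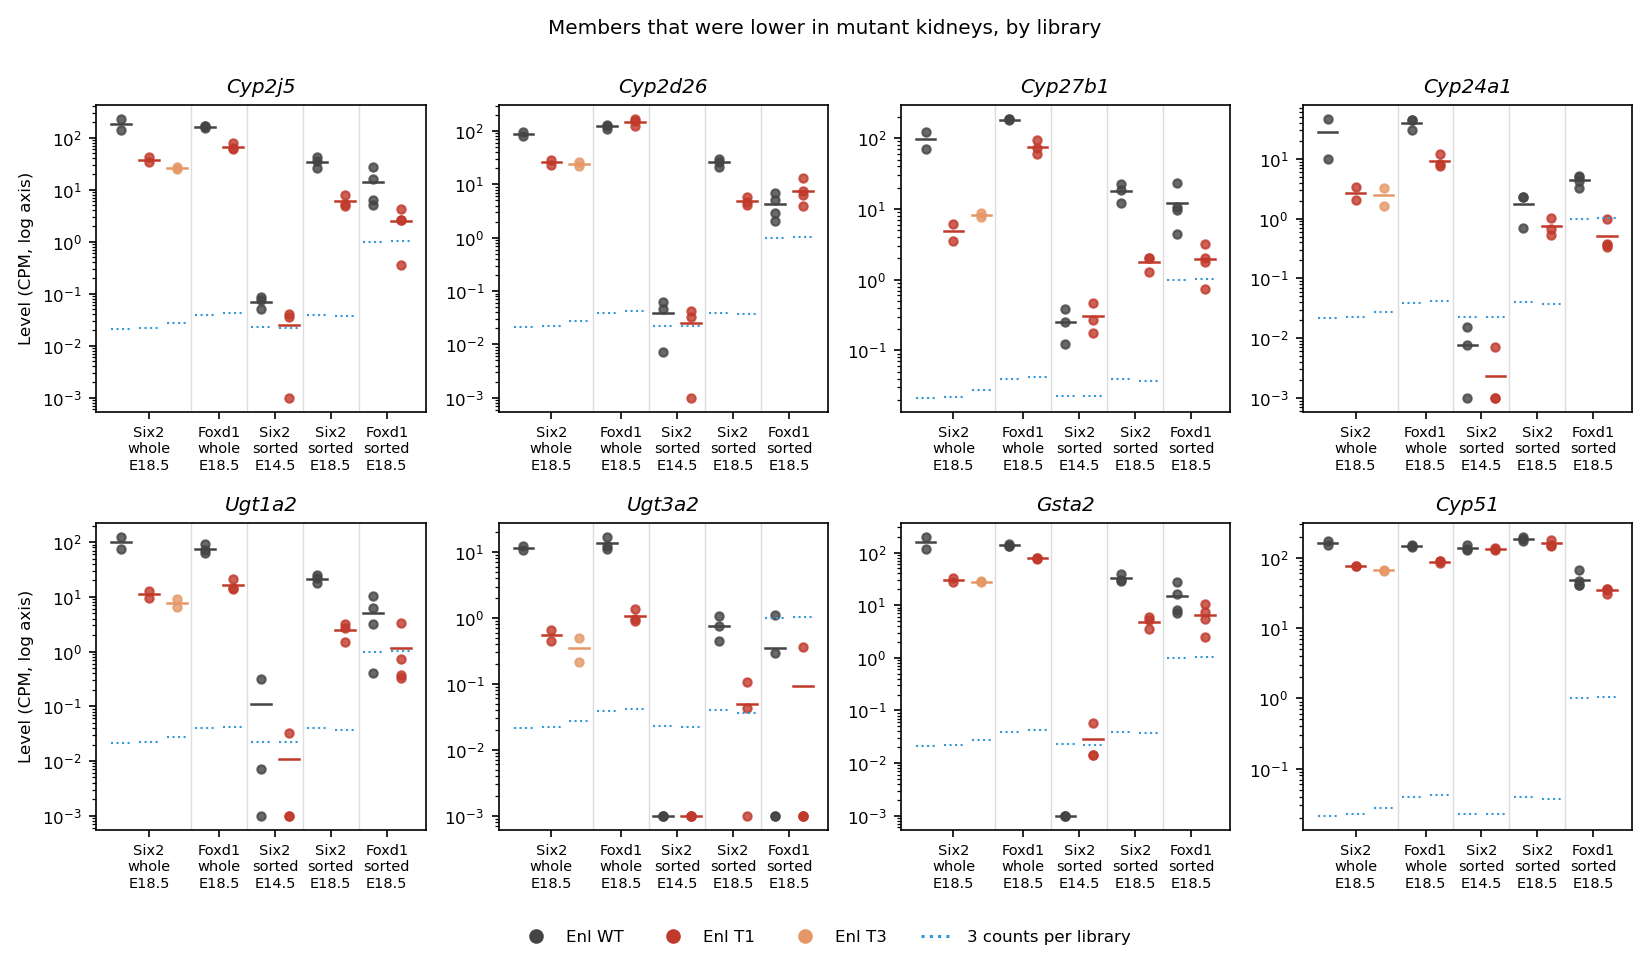
Level in CPM, on a log axis, of Cyp2j5, Cyp2d26, Cyp27b1, Cyp24a1, Ugt1a2, Ugt3a2, Gsta2 and Cyp51 in every library, 1 point a library, by experiment and genotype; a library at 0 is drawn at the bottom of the axis and the dotted line is the level of 3 counts. In Six2 whole kidneys each WT point lies above every T1 and T3 point of the same gene, and in sorted Six2 cells at E14.5 all but Cyp51 lie below 1 CPM.

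Among the P450 enzymes of arachidonic acid and other fatty acids, Cyp2j5 was 228 and 141 CPM in WT, 33.7 and 42.6 in T1 and 25.4 and 27.3 in T3, a log2 difference of -2.28 ± 0.22 (adjusted p = 0.000531) and -2.81 ± 0.22 (adjusted p = 0.000204). The fatty acid hydroxylase Cyp4a31 was 76.5 and 62.0 CPM in WT, 14.6 and 16.8 in T1 and 11.9 and 10.4 in T3 (-2.14 ± 0.13, adjusted p = 8.00e-05, and -2.63 ± 0.13, adjusted p = 3.46e-05). Both had well separated groups. Its close relatives Cyp4a10, Cyp4a32, Cyp4a12a and Cyp4a12b fell as well, with log2 differences of -1.69, -1.85, -2.34 and -3.83 in T1 and -2.45, -2.29, -3.69 and -2.55 in T3. Reads of these near-identical genes cannot be assigned with certainty. Cyp4a10, Cyp4a31 and Cyp4a32 summed to 1 row differed by -2.08 ± 0.13 in T1 (adjusted p = 0.000103). Cyp4a12a and Cyp4a12b were under 1 CPM in every Six2 whole kidney library, and their T1 calls were lost when 1 library was left out, Cyp4a12a with -2.41 to -1.71 (adjusted p = 0.0770 to 0.260) without WT number 2 or T1 numbers 1 and 2 or T3 numbers 1 and 2 alone and Cyp4a12b with -3.60 (adjusted p = 0.0674) without T1 number 1 and -4.02 (adjusted p = 0.0526) without T1 number 2. In T3 Cyp4a12a was -4.19 to -3.06 (adjusted p = 0.0743 to 0.103) without WT number 2 or T3 numbers 1 and 2 alone, and Cyp4a12b was -1.83 (adjusted p = 0.0513) without T3 number 1. Cyp4a14 of the same subfamily, at 0.246 and 0.158, 0.165 and 0.356 and 0.112 and 0.115 CPM, did not pass the test, with log2 differences of 0.36 ± 0.48 and -0.82 ± 0.53.

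Cyp2e1, which oxidises ethanol and other small solvents, was 17.3 and 8.13 CPM in WT, 1.38 and 1.51 in T1 and 0.215 and 0.717 in T3. Its log2 differences were -3.14 ± 0.47 (adjusted p = 0.00389) and -4.76 ± 0.53 (adjusted p = 0.000903). Cyp2j11 of the epoxygenase group fell from 24.5 and 21.7 CPM to 10.5 and 10.5 in T1 and 8.61 and 7.48 in T3 (-1.14 ± 0.10 and -1.52 ± 0.10). WT and mutant libraries were clearly apart in both. Cyp2d26 fell from 93.8 and 81.2 CPM to 23.0 and 28.6 in T1 and 26.5 and 21.6 in T3 (-1.76 ± 0.14, adjusted p = 0.000234, and -1.86 ± 0.14, adjusted p = 0.000158). Cyp51 fell less, and from a high level, going from 171 and 153 CPM to 75.4 and 77.2 and 65.3 and 67.4, or -1.09 ± 0.067 (adjusted p = 9.08e-05) and -1.29 ± 0.068 (adjusted p = 4.04e-05). The epoxygenase Cyp2c23, at 0.691 and 0.474 CPM in WT, had log2 differences of -2.04 in T1 and -1.63 in T3, and lost its T1 call at -2.32 to -1.75 (adjusted p = 0.0633 to 0.169) without WT number 1 or T1 numbers 1 and 2 alone. Its T3 call was lost at -2.21 to -1.20 (adjusted p = 0.0528 to 0.194) without WT number 1 or T1 numbers 1 and 2 or T3 numbers 1 and 2 alone.

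The UGT genes held the largest share of falls. Ugt3a1 and Ugt3a2 transfer sugars other than glucuronic acid. Ugt3a2 was 12.3 and 10.8 CPM in WT, 0.445 and 0.662 in T1 and 0.215 and 0.496 in T3, with log2 differences of -4.40 ± 0.31 (adjusted p = 0.000156) and -5.01 ± 0.34 (adjusted p = 0.000107), and Ugt3a1 differed by -3.88 ± 0.30 and -5.38 ± 0.36. Ugt1a2 was 124 and 73.4 CPM in WT, 9.33 and 12.8 in T1 and 6.501 and 9.26 in T3 (-3.16 ± 0.29, adjusted p = 0.000434, and -3.65 ± 0.29, adjusted p = 0.000228). The mutant libraries of these genes lay far under both WT libraries. Ugt1a genes share their last exons, 59.3% of the exon length in Ugt1a2 and 59.9% in Ugt1a9, so their counts rest on the first exons or on how shared reads were treated. Ugt1a9 fell from 6.52 and 3.99 CPM to 0.942 and 1.02 in T1 and 1.49 and 1.13 in T3 (-2.42 ± 0.27 and -1.999 ± 0.26), and Ugt1a10 from 14.7 and 16.8 to 4.85 and 5.07 and 3.10 and 4.64 (-1.66 ± 0.18 and -2.02 ± 0.18). Ugt2b5, which adds glucuronic acid to steroids among other substrates, had log2 differences of -1.78 ± 0.18 and -1.77 ± 0.18. All 3 had both WT libraries above every mutant library.

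A neighbour on the same Ugt1a locus did the opposite. Ugt1a1, the bilirubin transferase, was 0.868 and 0.580 CPM in WT, 1.65 and 1.81 in T1 and 1.80 and 1.16 in T3. The mutant libraries were all higher, and the log2 differences were 1.26 ± 0.28 (adjusted p = 0.0234) and 1.04 ± 0.29 (adjusted p = 0.0445). The T1 call was lost at 1.02 to 1.34 (adjusted p = 0.0530 to 0.131) without WT number 2 or T1 numbers 1 and 2 alone, and the T3 call at 0.69 to 1.04 (adjusted p = 0.0808 to 0.238) without WT number 2 or T1 numbers 1 and 2 or T3 number 1 alone. Cyp2f2, 13.5% of whose exon bases also belong to another gene, was at 0 in both WT libraries, which makes its rise at least 4.41-fold in T1 and at least 3.41-fold in T3 over the limit of 3 counts a library, from 0.0445 and 0.144 CPM in T1 and 0.0841 and 0.0620 CPM in T3. Its adjusted p was 0.0326 in T1 and 0.0399 in T3, and the call was lost when any 1 of the 6 libraries was left out in T1 (adjusted p = 0.0507 to 0.174), and any 1 but T1 number 1 in T3 (adjusted p = 0.0591 to 0.142). Ugt2b35 rose in T3 from 0.0691 and 0.112 CPM to 0.392 and 0.239 (1.78 ± 0.48, adjusted p = 0.0429), and was 1.39 to 2.096 (adjusted p = 0.0670 to 0.227) without WT number 1 or T1 numbers 1 and 2 or T3 numbers 1 and 2 alone.

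Of the transferases the alpha class fell as a whole. Gsta2 was 197 and 114 CPM in WT, 27.0 and 32.4 in T1 and 27.4 and 28.3 in T3, or -2.39 ± 0.23 (adjusted p = 0.000553) and -2.48 ± 0.23 (adjusted p = 0.000413). Gsta1, which shares 90.5% of its 50-base words with other genes, went from 13.0 and 7.43 CPM to 1.55 and 1.90 and 1.58 and 1.52, and the sum of Gsta1 and Gsta2 differed by -2.40 ± 0.23 in T1 (adjusted p = 0.000546). Gsta4 went from 86.6 and 75.1 CPM to 45.3 and 41.6 and 47.2 and 44.4 (-0.90 ± 0.084, adjusted p = 0.000503, and -0.82 ± 0.084, adjusted p = 0.000624). All 4 alpha genes tested fell in both mutants, Gsta3 with differences of -0.71 and -0.71. Gstz1, which works in the breakdown of tyrosine and has 12.2% of its exon length in common with another gene, went from 86.4 and 62.9 CPM to 32.6 and 31.3 and 33.2 and 36.2 (-1.22 ± 0.14 and -1.10 ± 0.14). The theta class Gstt2 was called in T1 alone (-0.72 ± 0.13, adjusted p = 0.00866), and the difference was -0.54 (adjusted p = 0.0177) without WT number 1 and -0.61 (adjusted p = 0.0904) without T1 number 2. In T3 its log2 difference was -0.52 ± 0.13.

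Pi and omega class enzymes and the microsomal Mgst3 had differences near 0. Gstp1 was 61.0 and 63.3 CPM in WT, 63.2 and 55.2 in T1 and 60.4 and 56.1 in T3. Gsto1, an omega class transferase, was 38.2 and 42.9, 39.4 and 40.5 and 46.0 and 41.4 CPM, and Mgst3 was 34.0 and 30.9, 31.3 and 31.6 and 32.5 and 29.8 CPM. The log2 differences in T1 were -0.070 ± 0.078, -0.023 ± 0.082 and -0.047 ± 0.079 (SE), none of which passed the test. Gstm1, Gstk1, Mgst1 and the oxysterol hydroxylase Cyp7b1 differed by 0.067 ± 0.11, -0.095 ± 0.088, 0.12 ± 0.053 and -0.0057 ± 0.088 in T1 without passing it either. The steroid synthesis enzymes Cyp11a1, Cyp17a1 and Cyp21a1 of the adrenal cortex were below 1 CPM in every library of the series.

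The 2 mutants were then compared with each other. None of the 91 genes was called in T3 against T1 by edgeR's quasi-likelihood test, where 0.00418% of all genes were called higher (1 gene) and 0% lower. At an unadjusted p under 0.05, 1 of the 91 was higher in T3 and 11 were lower, and edgeR's exact test called 3 and DESeq2 1. Of the genes described so far Cyp2e1 lay lowest in T3, at -1.62 ± 0.53 (adjusted p = 0.596), while Cyp27b1 stood at 0.77 ± 0.31 and Cyp2j5 at -0.53 ± 0.21. An adjusted p over the threshold does not show that the alleles act alike.

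P450 genes that were nearly uncounted in the other 4 Six2 whole kidney libraries were counted in the 2 with liver RNA, mostly in T1 number 2. A set of 10 genes had at least 10 counts in T1 number 2 and at most 1 count in both WT libraries, T1 number 1 and T3 number 1, and was picked after its values were seen. The counts in T1 number 2 and T3 number 2 were 52 and 12 for Cyp2c68, 48 and 20 for Cyp2c70, 42 and 3 for Cyp2c40, 31 and 5 for Cyp3a16, and 19 and 1 for Cyp7a1, the rate-limiting enzyme of bile acid synthesis. The remaining genes, Cyp2c69, Cyp2a12, Cyp3a11, Cyp2c67 and Cyp2d10, had 11 to 16 counts in T1 number 2 and 1 to 10 in T3 number 2. The HNF4 letters of the promoters shown stood in 7 of these 10 genes and in 4 of all the others. Several of these are similar genes with nearly the same promoter bases, so the matches are not independent. Without T1 number 2 and T3 number 2, in fits added after the data were seen, 21 of the genes were called in T1, all lower, and 24 in T3.

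**Figure D2:**
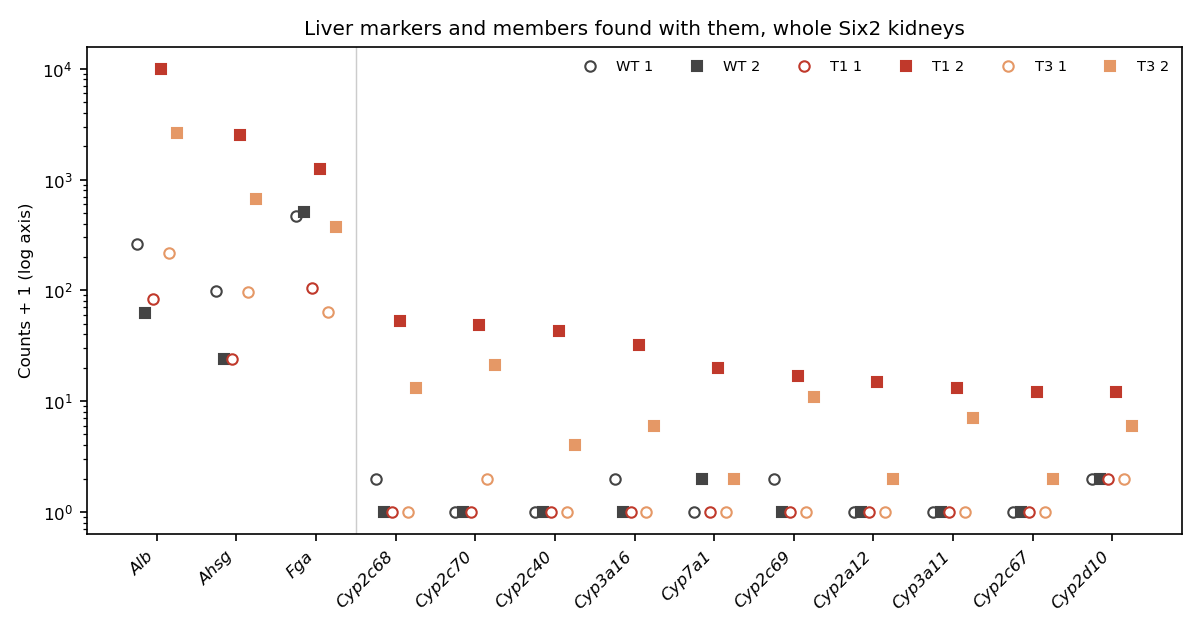
Counts plus 1, on a log axis, of the liver genes Alb, Ahsg and Fga and of 10 P450 genes in the 6 Six2 whole kidney libraries, 1 point a library. T1 number 2 has the highest count for Alb, at 9913, and for all 10 P450 genes, with T3 number 2 at 2643 for Alb and between 1 and 20 for the P450 genes. For Fga T1 number 2 is highest at 1249, while T3 number 2, at 374, lies below both WT libraries, at 464 and 504.

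Sorted Six2 cells at E14.5 show these genes at an early stage of nephron formation. The proximal tubule markers summed to 11.04 to 36.8 CPM in WT and 10.8 to 16.9 in T1, with Kap and Miox at 0. Of 52 genes tested, 7 rose and 3 fell in T1, against 4.11% and 2.28% of all 22387 genes, and the median was 0.16 against 0.00. The count of 10 calls was 6 without WT number 1 and 5 without WT number 2 or T1 number 3. Marker genes of stroma were higher in the T1 libraries, 7 of 11 called up and 1 down, with a sum of 814 to 948 CPM in WT and 1271 to 2177 in T1, and 7 of 8 progenitor markers fell. The part of either in the results was not tested.

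Cyp1b1, a P450 known as a target of the aryl hydrocarbon receptor, was lower in T1 at this stage. It was 37.9, 35.6 and 41.4 CPM in WT and 21.4, 19.9 and 19.99 in T1, with no overlap, and differed by -0.89 ± 0.077 (adjusted p = 0.000300). Cyp4f39, a fatty acid hydroxylase of the skin barrier, was 0.624, 0.927 and 0.802 CPM in WT and 0.204, 0.155 and 0.0575 in T1 (-2.47 ± 0.47, adjusted p = 0.0106). The alpha class Gsta3 fell from 0.655, 0.642 and 1.30 to 0.346, 0.360 and 0.223 CPM (-1.47 ± 0.38, adjusted p = 0.0401), a call lost at -1.64 to -1.05 (adjusted p = 0.0571 to 0.124) without WT numbers 2 and 3 or T1 numbers 1, 2 and 3 alone.

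Among the rises Gstm2, of the mu class, was 13.6, 14.99 and 16.8 CPM in WT and 25, 22.6 and 23.3 in T1 (0.66 ± 0.095, adjusted p = 0.00333). The microsomal Mgst2 was 0.491, 0.656 and 0.688 and 1.27, 1.54 and 1.47 CPM (1.23 ± 0.23, adjusted p = 0.00917), and Cyp2d22 was 2.54, 2.75 and 2.25 and 4.56, 4.31 and 4.24 CPM (0.81 ± 0.13, adjusted p = 0.00512). For each of these the 3 T1 libraries lay above the 3 WT libraries, and the call held with any 1 library left out. Gstt1, of the theta class, rose from 0.140, 0.121 and 0.306 to 0.522, 0.671 and 1.12 CPM, a log2 difference of 2.04 ± 0.47 (adjusted p = 0.0247) that was 1.67 to 2.13 (adjusted p = 0.0539 to 0.0980) without WT numbers 1 and 2 or T1 numbers 2 and 3 alone. The P450 Cyp2s1, expressed mainly outside the liver, went from 1.08, 0.842 and 1.49 to 4.14, 1.73 and 4.22 CPM (1.58 ± 0.36) and was 1.39 to 1.55 (adjusted p = 0.0697 to 0.0890) without WT numbers 1 and 2 or T1 numbers 1 and 3 alone. The fatty acid hydroxylases Cyp2u1 and Cyp4v3 differed by 1.28 ± 0.27 and 1.24 ± 0.32. Cyp2u1 was 1.00 to 1.30 (adjusted p = 0.0506 to 0.0719) without WT numbers 1 and 2 or T1 numbers 2 and 3 alone, and Cyp4v3 was 1.03 to 1.41 (adjusted p = 0.0533 to 0.148) without WT numbers 1, 2 and 3 or T1 numbers 1 and 3 alone. In these 4 less stable genes the groups did not overlap either.

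At E18.5 the sorted Six2 cells gave a reading from libraries separate from those of whole kidneys. Of 75 genes tested, 29 fell and 3 rose in T1, against 5.54% and 6.14% of all 22685 genes, and the median was -0.35 against 0.02. By family, 15 of 39 P450, 9 of 13 UGT, 4 of 20 GST and 1 of 3 MGST genes fell. Of the 30 genes lower in T1 whole kidneys, 22 (73.3%) were among these 29 (75.9%). The same overlap was not counted over all genes, so it is no result about these genes in particular. The proximal tubule markers summed to 1803 to 2401 CPM in WT and 532 to 598 in T1, with 20 of 20 lower. Red cell markers summed to 107 to 211 and 1552 to 2275 CPM and macrophage markers to 38.2 to 40.8 and 105 to 120, both higher in T1, and the part of these in the results was not tested.

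Cyp27b1 was 12.3, 22.5 and 18.7 CPM in WT and 2.04, 1.30 and 2.02 in T1, with a log2 difference of -3.31 ± 0.23 (adjusted p = 2.73e-07). Gsta2 was 29.8, 39.3 and 28.5 and 5.31, 3.496 and 5.87 CPM (-2.73 ± 0.18, adjusted p = 1.72e-07), and Ugt1a2 was 21.9, 25.1 and 17.9 and 3.15, 1.504 and 2.66 CPM (-3.14 ± 0.22, adjusted p = 3.05e-07). In all of these the groups were separate. Cyp2j5, Cyp2d26, Cyp2e1 and Cyp4a31 fell too, with differences of -2.53, -2.40, -2.70 and -2.63 on the log2 scale, and Ugt3a2 went from 0.455, 1.06 and 0.767 to 0.0435, 0 and 0.107 CPM (-3.90). Cyp4a12b was at least 7.62-fold lower in T1, whose libraries stood at 0.0435, 0.0125 and 0 CPM. The vitamin D degrading enzyme Cyp24a1 was 0.707, 2.29 and 2.34 CPM in WT and 0.522, 0.677 and 1.04 in T1. Its groups overlapped, and the difference of -1.25 ± 0.41 (adjusted p = 0.0497) was -1.19 to -1.01 (adjusted p = 0.147 to 0.195) without WT numbers 2 and 3 or T1 numbers 1 and 2 alone.

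Some genes had other values than in the whole kidneys. Cyp51 was 176, 197 and 183 CPM in WT and 153, 148 and 181 in T1 sorted cells, overlapping groups with a difference of -0.20 ± 0.080 (adjusted p = 0.106) that did not pass the test. Ugt2b34 was 32.1, 42.7 and 31.9 and 20.5, 11.6 and 12.6 CPM (-1.25 ± 0.19, adjusted p = 0.000293), whereas in the whole kidneys T1 stood at 0.41 ± 0.14 (adjusted p = 0.111). Cyp4f39 fell from 0.745, 0.827 and 0.866 to 0.109, 0.226 and 0.133 CPM (-2.37 ± 0.42, adjusted p = 0.00122), against -0.48 ± 0.50 in whole kidneys. Mgst1 fell from 48.8, 42.1 and 42.1 to 30.1, 26.01 and 26.2 CPM (-0.69 ± 0.091, adjusted p = 0.000104). The difference between sorted cells and whole kidneys was not tested. Cyp4v3 rose from 1.2, 0.853 and 1.19 to 2.46, 2.91 and 2.62 CPM (1.31 ± 0.22, adjusted p = 0.000777), and the epoxygenase Cyp2j9 from 1.88, 1.81 and 1.90 to 4.02, 2.99 and 3.24 (0.88 ± 0.18, adjusted p = 0.00377). Cyp4f37 rose by 0.92 ± 0.29 (adjusted p = 0.0417) and was 0.80 to 0.97 (adjusted p = 0.0572 to 0.156) without WT numbers 1, 2 and 3 or T1 numbers 1 and 3 alone.

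**Figure D3:**
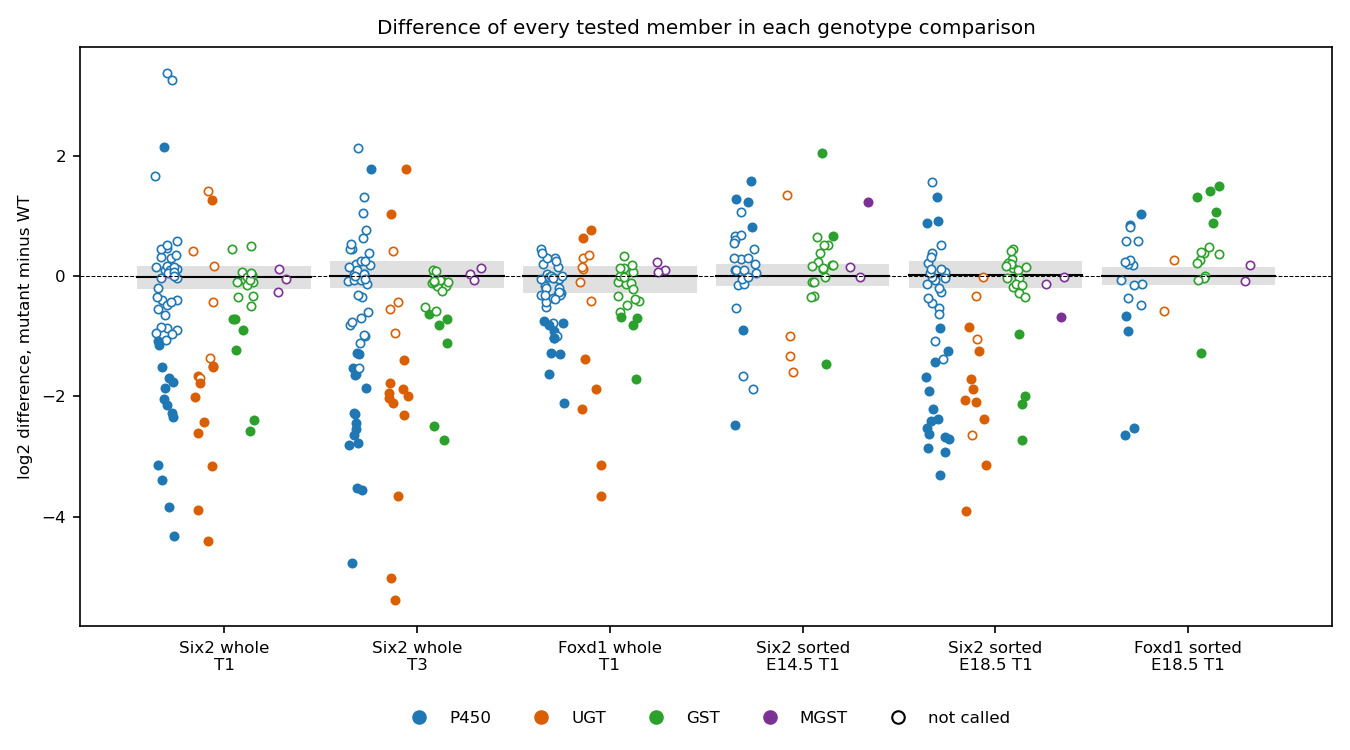
Log2 difference from WT of each tested P450, UGT and glutathione transferase gene in the 6 comparisons of a mutant with WT, 1 point a gene, filled where called; the grey band spans the quartiles of all tested genes with a line at their median, a gene at or below 3 counts in 1 group is drawn at the bound that limit gives, and genes at or below it in both groups are not drawn. Points of the comparisons of T1 and T3 whole kidneys and T1 sorted cells in the Six2 line at E18.5 spread far below the band, with medians of -0.40, -0.43 and -0.35.

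Development was measured in the sorted Six2 cells as E18.5 against E14.5, where calls needed an adjusted p under 0.01 with a change of more than 2-fold. In WT cells 37 of 76 genes rose and 8 fell, where 24.8% of all 25222 genes rose and 20.6% fell, and the median was 1.68 against 0.02. In T1 cells 31 rose and 5 fell, against 24.4% and 19.8%, with a median of 0.82 against 0.07 (0.71 with genes at 0 or near it set at their limit). All 13 UGT genes tested were higher at E18.5 in WT, 11 of them called, and 21 of 40 P450 genes rose. The GST genes divided into 4 that rose and 6 that fell. A gene could pass the count filter of this fit through its E18.5 counts alone. In the fit of E14.5 by itself only 4 UGT genes, and 52 genes in all, passed. Genes let in through E18.5 could hardly come out lower there, so their direction is no independent result. Of the 37 genes that rose in WT, 21 (56.8%) were among the 30 lower in T1 whole kidneys (70%), and none of the 8 that fell was. How far all genes overlap in this way was not counted. The 20 proximal tubule markers all rose in both genotypes, by medians of 6.73 in WT and 4.47 in T1 on the log2 scale.

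Gsta2 had no count in any of the 3 E14.5 WT libraries and 29.8, 39.3 and 28.5 CPM at E18.5, a rise of at least 1441-fold. Gsta1 rose at least 102-fold, Cyp24a1 at least 78.9-fold, Cyp2e1 at least 76.5-fold and Ugt3a2 at least 33.6-fold, all against E14.5 libraries at or under the limit of 3 counts. Cyp2j5 had measurable levels at both stages, 0.0858, 0.0499 and 0.0764 and 26.1, 42.2 and 35.04 CPM, and rose by 8.91 ± 0.37 on the log2 scale (adjusted p = 2.27e-11). Cyp2d26 rose by 9.38 ± 0.41 and Ugt2b34 by 8.91 ± 0.67. Cyp1a1, a further target of the aryl hydrocarbon receptor, went from 0.00780, 0.121 and 0.115 to 6.52, 11.3 and 9.64 CPM (6.78 ± 0.59, adjusted p = 9.07e-08), while in WT Six2 whole kidneys at E18.5 it was 0.952 and 1.502 CPM.

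The genes that fell with development included Gstp1 and Gstm5, the first 2 at E14.5. Gstp1 went from 152, 153 and 156 to 50.6, 46.8 and 44.7 CPM in WT (-1.70 ± 0.058, adjusted p = 3.67e-12) and from 163, 167 and 163 to 54.8, 49.8 and 54.0 in T1 (-1.64 ± 0.057). Its near-identical neighbour Gstp2 differed by -2.24 and -2.20, and Gstm5 by -1.18 and -1.45 on the log2 scale in WT and T1. Gstk1, Gstm4, Gstm7, Cyp4f18 and Cyp4f37 fell in WT as well, with differences of -1.48, -1.09, -1.003, -3.81 and -1.15. Gstm7 stood at the fold limit and was -0.99 to -0.91 (adjusted p = 1.21e-05 to 3.98e-05) without the E14.5 WT number 1 or the E18.5 WT numbers 2 and 3 alone. Gstm1, also among the first 5 at E14.5, differed by -0.073 ± 0.084 in WT and -0.14 ± 0.084 in T1 and was not called. Gstp1 and Gstm5 fell in both genotypes, with stage by genotype interactions of 0.062 ± 0.079 and -0.26 ± 0.10 that did not pass the test.

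The interaction of stage and genotype tests whether the T1 difference changed between E14.5 and E18.5. It was called for 11 of 76 genes below 0 and 1 above, against 4.22% and 3.94% of all genes, with a median of -0.49 against 0.02. Genes could pass the filter of this fit through E18.5 counts alone, and 52 passed at E14.5 by itself. For the others the T1 difference at E14.5 was hardly measured, as for Ugt3a2 at -3.91 ± 9087. The median below 0 is therefore no result independent of the difference at E18.5. Cyp27b1 rose from 0.390, 0.250 and 0.122 to 12.3, 22.5 and 18.7 CPM in WT and from 0.176, 0.475 and 0.266 to 2.04, 1.30 and 2.02 in T1, an interaction of -3.56 ± 0.55 (adjusted p = 0.00114). Ugt2b5 rose from 0.0390, 0.0143 and 0.0841 to 4.80, 6.03 and 3.79 CPM in WT and from 0.127, 0.106 and 0.115 to 1.34, 0.614 and 0.826 in T1 (-3.73 ± 0.61, adjusted p = 0.00194). The Cyp27b1 groups overlapped at E14.5 and were separate at E18.5. The Ugt2b5 level was higher in every T1 library at E14.5, without a call (1.35 ± 0.70, adjusted p = 0.268), and lower in every T1 library at E18.5 (-2.38 ± 0.27, adjusted p = 3.23e-05).

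Other genes with a called interaction included several of those higher in T1 at E14.5. Gstt1 was higher in T1 at E14.5 and was 1.59, 2.25 and 2.58 CPM in WT and 1.49, 1.68 and 2.09 in T1 at E18.5, where the groups overlapped (-2.31 ± 0.53, adjusted p = 0.0151). Cyp2s1, Cyp2u1 and Cyp2d22, also higher in T1 at E14.5, had interactions of -1.94, -1.91 and -0.93. Mgst1 and Gsta4 differed by -0.021 and -0.33 at E14.5 and by -0.69 and -0.97 at E18.5, with interactions of -0.66 ± 0.12 and -0.63 ± 0.098 (adjusted p = 0.00345 and 0.00131). Cyp1b1 was the 1 gene above 0, at 0.45 ± 0.11 (adjusted p = 0.0188), being 55.0, 64.5 and 62.7 CPM in WT and 45.5, 43.1 and 43.9 in T1 at E18.5, and its call was 0.34 to 0.42 (adjusted p = 0.0561 to 0.0802) without the E18.5 WT number 1 or the E18.5 T1 numbers 1, 2 and 3 alone. The value for Gsta2, -7.34, rests on WT libraries at 0 and is no measure of size.

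**Figure D4:**
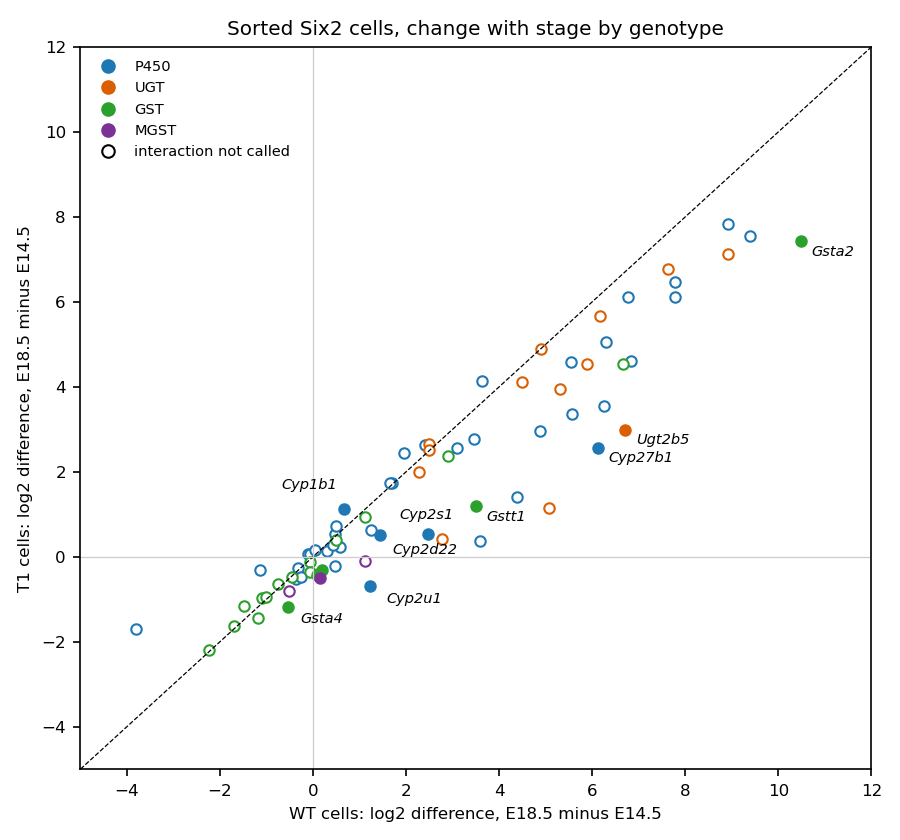
Log2 change from E14.5 to E18.5 in sorted Six2 cells, WT on the x axis and T1 on the y axis, 1 point a gene, filled where the stage by genotype interaction was called, with 3 filled points (Gstm2, Gstz1 and Mgst1) left without a name. Cyp27b1 rose by 6.13 in WT and 2.56 in T1 and lies well under the diagonal, whereas Gstp1, at -1.70 and -1.64, lies on it.

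The sorted Foxd1 cells carry T1 in the stroma, the tissue around the tubules, and their libraries are the smallest of the series, so that 37 genes were tested. Of these 7 rose and 5 fell in T1, against 3.63% and 2.18% of all 12717 genes, with a median of 0.21 against -0.00. Of 15 GST genes 5 rose. Gstt1 was 8.61, 8.77, 8.47 and 6.51 CPM in WT and 21.0, 26.3, 24.5 and 19.7 in T1, a log2 difference of 1.49 ± 0.17 (adjusted p = 7.22e-06). Gstm7 was 6.94, 11.1, 9.68 and 10.8 and 23.6, 24.3, 22.0 and 24.9 CPM (1.31 ± 0.16, adjusted p = 2.26e-05), and Gstm6 was 3.06, 2.34, 2.02 and 1.81 and 7.01, 3.99, 7.56 and 6.78 CPM (1.41 ± 0.30, adjusted p = 0.00462). All 4 T1 libraries lay above all 4 WT libraries in each. Gstt2 and Gstt3 rose by 0.88 ± 0.18 and 1.07 ± 0.21, and 13.6% of the exon length of Gstt3 lies in a stretch it shares with another gene.

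Cyp1b1 was also higher, 32.5, 37.4, 43.9 and 37.6 CPM in WT and 75.7, 61.5, 68.4 and 64.0 in T1, with no overlap (0.84 ± 0.10, adjusted p = 1.97e-05). Cyp2s1 went the other way, from 77.8, 81.0, 83.0 and 87.2 to 40.2, 43.2, 42.1 and 47.8 CPM (-0.92 ± 0.087, adjusted p = 8.44e-07). Cyp4v3 rose by 1.02 ± 0.29 (adjusted p = 0.0309) and was 0.86 to 1.08 (adjusted p = 0.0507 to 0.114) without WT numbers 1, 2 and 3 or T1 numbers 2 and 3 alone. The oxysterol hydroxylase Cyp39a1, at 16.1, 19.0, 14.9 and 15.6 and 15.5, 9.64, 7.92 and 8.72 CPM with overlapping groups, differed by -0.66 ± 0.20 (adjusted p = 0.0392) and was -0.69 to -0.56 (adjusted p = 0.0518 to 0.132) without WT numbers 1, 2 and 4 or T1 numbers 2, 3 and 4 alone. The highest pi and mu class genes were not called, with Gstp1 at 0.40 ± 0.078 and Gstm5 at 0.27 ± 0.087, both under the fold limit. The macrophage markers, 6 of 10 higher in T1, summed to 136 to 347 CPM in WT and 289 to 400 in T1, and their part was not tested.

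Some genes typical of the proximal tubule were counted in these sorted cells at low levels, and they did not all move alike. Cyp2d26 (0.82 ± 0.37, adjusted p = 0.183) and Cyp4a31 (0.59 ± 0.27, adjusted p = 0.189) were higher in T1, with overlapping groups and no call. Cyp27b1, Cyp2j5 and Gsta2 were called lower. Cyp27b1 was 23.3, 10.8, 4.43 and 9.76 CPM in WT and 0.738, 1.99, 1.80 and 3.23 in T1 (-2.64 ± 0.46, adjusted p = 0.000808), and Cyp2j5 was 27.5, 16.4, 6.45 and 5.06 and 2.58, 4.32, 0.360 and 2.58 CPM (-2.52 ± 0.52, adjusted p = 0.00318). The WT libraries were widely spread, and no T1 library reached the lowest of them. Gsta2, at 28.1, 16.7, 8.06 and 7.23 and 7.38, 10.3, 2.52 and 5.49 CPM, overlapped, and its difference of -1.27 ± 0.39 (adjusted p = 0.0456) was -1.34 to -0.76 (adjusted p = 0.0693 to 0.203) without WT numbers 1 and 2 or T1 numbers 1, 3 and 4 alone. The proximal tubule markers summed to 205 to 564 CPM in WT and 107 to 192 in T1, with 6 of 12 tested lower, and their part in these falls was not tested. Cyp24a1 did not pass the count filter, with 5.00, 5.26, 3.23 and 4.34 CPM in WT and 0.369, 0.332, 0.360 and 0.969 in T1.

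**Figure D5:**
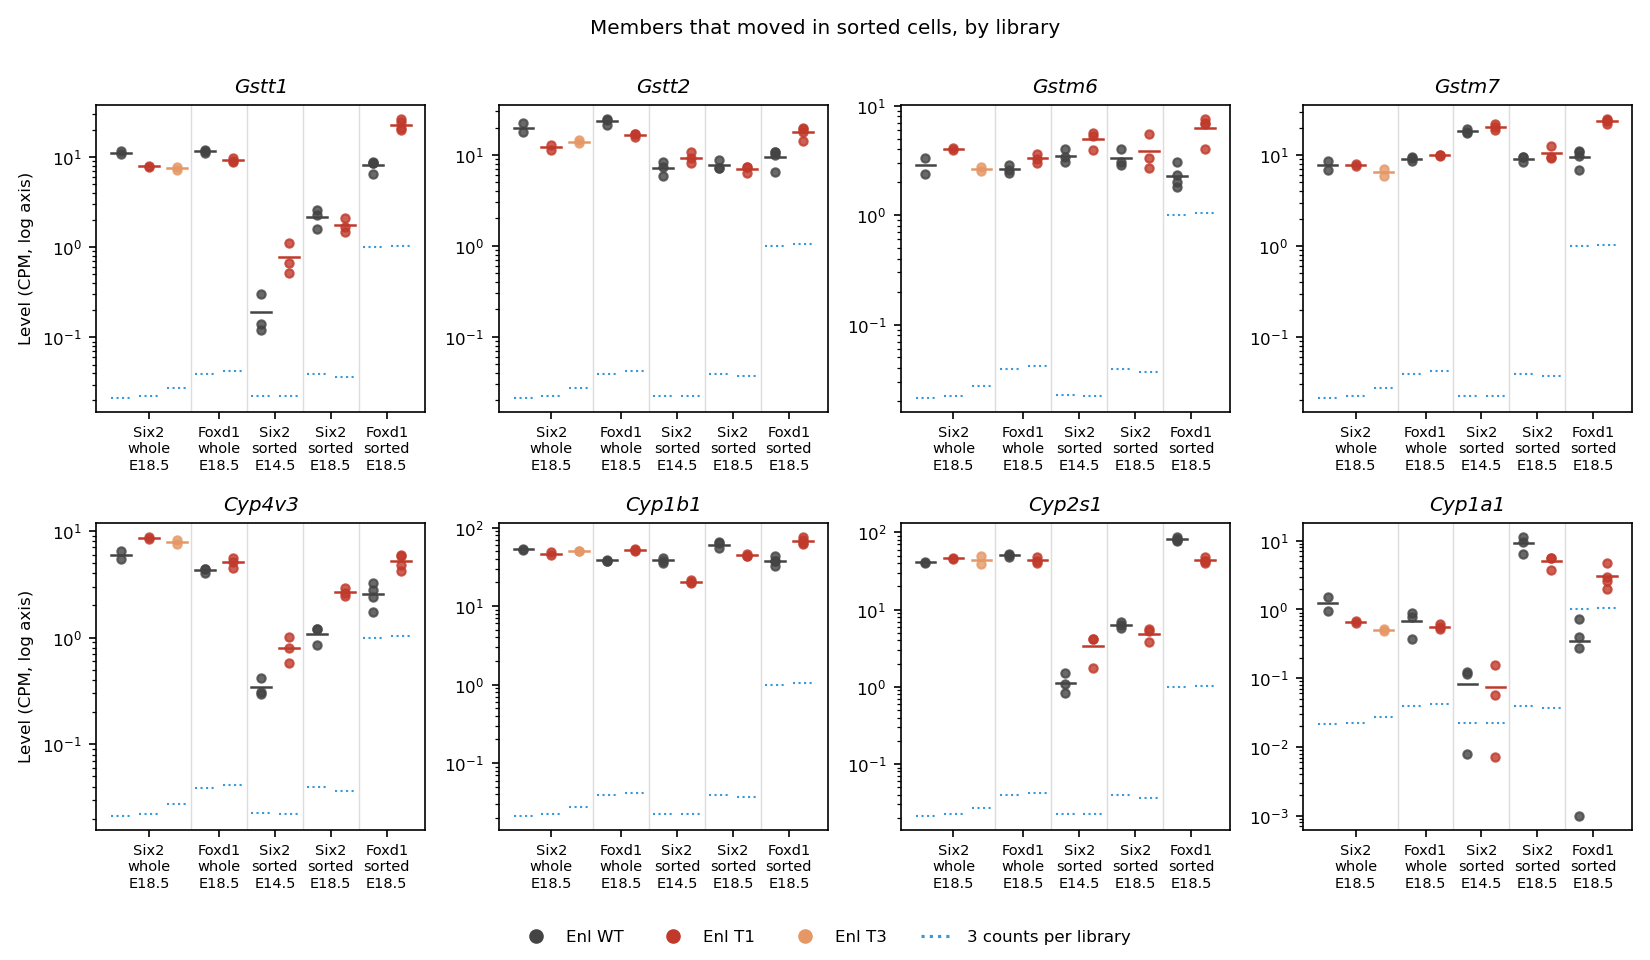
Level in CPM, on a log axis, of Gstt1, Gstt2, Gstm6, Gstm7, Cyp4v3, Cyp1b1, Cyp2s1 and Cyp1a1 in every library, drawn as in the plot of the 8 genes led by Cyp2j5. Cyp1b1 is lower in T1 than in WT in sorted Six2 cells at E14.5, at 19.9 to 21.4 against 35.6 to 41.4 CPM, and higher in sorted Foxd1 cells, at 61.5 to 75.7 against 32.5 to 43.9 CPM.

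In whole kidneys of the Foxd1 line Cre acts in the stroma and not in the nephron lineage. There 19 of 76 genes fell and 2 rose in T1, against 7.53% and 2.65% of all 20145 genes, with a median of -0.21 against -0.00. Of the 30 genes lower in Six2 T1 whole kidneys, 15 (50%) were among these 19 (78.9%), an overlap that was not counted over all genes. By family, 10 of 40 P450, 5 of 13 UGT and 4 of 20 GST genes fell. The proximal tubule markers summed to 4676 to 5050 CPM in WT and 2034 to 2629 in T1, with 18 of 20 lower, and their part was not tested.

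The falls included Ugt3a2, from 11.2, 12.4 and 16.9 CPM in WT to 1.37, 0.889 and 0.967 in T1 (-3.66 ± 0.19, adjusted p = 2.54e-08), and Ugt1a2, from 63.9, 92.5 and 70.9 to 14.496, 20.8 and 13.7 (-2.21 ± 0.15, adjusted p = 2.71e-07). Of the enzymes of vitamin D, Cyp24a1 and Cyp27b1 fell, while Cyp2r1 was not called (0.19 ± 0.22). Cyp27a1 was lower with separate groups (-0.52 ± 0.12, adjusted p = 0.00389), and was not called because it stayed under the fold limit. Cyp24a1 was 44.6, 44.4 and 31.0 and 7.65, 11.99 and 8.23 CPM (-2.10 ± 0.16, adjusted p = 6.57e-07), and Cyp27b1 was 185.2, 186 and 181 and 59.2, 92.9 and 72.5 CPM (-1.30 ± 0.11, adjusted p = 2.35e-06). Cyp2j5, Cyp2e1, Gsta2, Cyp51 and Gstz1 fell with differences of -1.27, -1.63, -0.81, -0.75 and -0.68 on the log2 scale, and Cyp4b1, a P450 known from lung, went from 4.35, 4.53 and 4.24 to 1.93, 2.68 and 3.00 CPM (-0.78). The WT and T1 groups of these genes were separate.

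Not every tubular gene followed. Cyp2d26 was 109.5, 129 and 126 CPM in WT and 125, 157 and 167 in T1, overlapping groups with a difference of 0.30 ± 0.092, and Ugt1a9, at 3.89, 4.29 and 4.26 and 3.74, 4.18 and 3.66 CPM, differed by -0.10 ± 0.13 and did not pass the test. Ugt2b38 rose from 4.29, 5.91 and 5.37 to 8.20, 9.41 and 8.84 CPM (0.76 ± 0.13, adjusted p = 0.000481) and Ugt2b34 from 35.01, 35.5 and 30.5 to 48.5, 53.1 and 54.9 (0.63 ± 0.070, adjusted p = 1.88e-05). Reads of Ugt2b38 and Ugt2b5 can be exchanged between these similar genes, and their summed counts differed by 0.49 ± 0.068 (adjusted p = 0.000128), under the fold limit, so that the rise was not called for the pair. Ugt2b34 stood near the fold limit and was 0.56 (adjusted p = 0.000119) without WT number 3.

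The Cre line by genotype interaction asks whether T1 acted differently on the whole kidney in the Foxd1 and Six2 lines. It was called for 20 of 86 genes above 0, where the Foxd1 line had the higher T1 difference, and 2 below, against 4.82% and 3.55% of all 22826 genes, with a median of 0.12 against 0.01. Without the Six2 T1 number 1 the count was 13, all above 0. The 2 lines were sequenced and counted as separate experiments, and also differ in sex as given above, so that line and experiment cannot be told apart. Cyp27b1 had the highest value, 3.00 ± 0.33 (adjusted p = 7.97e-05), with log2 differences of -4.32 in the Six2 line and -1.30 in the Foxd1 line. Ugt2b5 and Cyp2d26, called lower in the Six2 line, stood at 0.35 and 0.30 in the Foxd1 line, with interactions of 2.104 ± 0.17 and 2.04 ± 0.17 (adjusted p = 8.88e-06 and 1.16e-05). Ugt2b38 was lower in the one line, at -1.50, and higher in the other, at 0.76 (2.24 ± 0.33, adjusted p = 0.000795), although the first of these was -1.36 (adjusted p = 0.145) without T1 number 1 and -1.63 (adjusted p = 0.0968) without T1 number 2. Cyp4b1 was below 0, at -0.95 ± 0.23, and was -1.001 to -0.90 (adjusted p = 0.0615 to 0.0853) without the Six2 WT number 2 or the Six2 T1 numbers 1 and 2 alone. For Ugt1a2 and Cyp24a1, which fell in both lines, the interactions of 0.92 ± 0.31 and 1.24 ± 0.63 did not pass the test.

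Some similar genes had unlike WT levels in the 2 lines. The tables list 55471 gene identifiers for sorted Foxd1 cells and 54752 for each of the other 3 experiments, and whether all were aligned and counted with the same settings was not tested. Cyp2d40 was 2.40 and 2.40 CPM in Six2 and 0.0132, 0.0128 and 0 in Foxd1 WT whole kidneys, Cyp4a32 was 2.73 and 1.86 and 0.145, 0.115 and 0.0937, and Cyp4f37 was 1.18 and 1.22 and 0.197, 0.191 and 0.134 CPM. In sorted cells Gsta1 was 1.503, 3.02 and 2.37 CPM in WT Six2 and 0, 0, 0 and 0 in WT Foxd1 libraries, beside Gsta2 at 29.8, 39.3 and 28.5 and 28.1, 16.7, 8.06 and 7.23. The interactions of these genes rest on levels that differed between the experiments before genotype, among them 2.21 ± 0.44 for Cyp4a32.

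In sorted cells at E18.5 the lineage by genotype interaction was called for 16 of 50 genes above 0 (a higher T1 difference in Foxd1 cells) and 3 below, against 8.25% and 7.63% of all 14869 genes, with a median of 0.48 against -0.01. Cyp1a1 was 6.52, 11.3 and 9.64 CPM in WT and 3.76, 5.59 and 5.65 in T1 Six2 cells, and 0.278, 0, 0.403 and 0.723 in WT and 2.95, 1.99, 4.68 and 2.58 in T1 Foxd1 cells, an interaction of 4.05 ± 0.71 (adjusted p = 0.000327). The T1 libraries were lower in the first lineage and higher in the second. Cyp1a1 did not pass the count filter in Foxd1 cells alone, and its fall in Six2 cells was -0.69 (adjusted p = 0.0512) without WT number 2. Its Foxd1 WT libraries were all under the limit of 3 counts, so its interaction is no measure of size. Cyp1b1 had an interaction of 1.28 ± 0.13 (adjusted p = 4.55e-07), Gstt1 of 1.76 ± 0.29 and Gsta4 of 1.32 ± 0.11. Ugt2b5, Cyp2d26 and Cyp4a31 had interactions of 3.59 ± 0.58, 3.21 ± 0.42 and 3.20 ± 0.37, having fallen in Six2 cells while they did not pass the test, or were not tested, in Foxd1 cells. Cyp2j9 was below 0, at -1.03 ± 0.28 (adjusted p = 0.0145). Of the 19 called genes, 6 lost the call when some 1 library was left out. Lineage, library depth, sequencing run and the making of the 2 tables cannot be told apart in this comparison. The share of libraries with Ddx3y, and so the sex of the embryos, also differs between the lineages, as given above.

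Genes that serve these enzymes were read from lists. Of all genes tested, 4.88% fell in T1 and 5.28% in T3 whole kidneys of the Six2 line, 2.28% and 5.54% in sorted Six2 cells at E14.5 and E18.5, 7.53% in Foxd1 whole kidneys and 2.18% in sorted Foxd1 cells, so that 1 or 2 calls in a list this short are no result about the list. Of 9 genes that supply glutathione and UDP-sugars, 5 fell in T1 and in T3 whole kidneys of the Six2 line, led by Ggt1, which cleaves glutathione outside the cell (-1.94 ± 0.13 and -2.04 ± 0.13), and Gss, which makes it (-1.43 ± 0.065 and -1.57 ± 0.065). In sorted Six2 cells at E18.5, 3 of 9 fell, in Foxd1 whole kidneys 2, in sorted Six2 cells at E14.5 1 (Ggt1, -0.94 ± 0.26) and in sorted Foxd1 cells none, with 2 lower and 0 higher there at an unadjusted p under 0.05. Of 8 partners of P450 enzymes, among them the reductase Por, 1 fell in T1 whole kidneys, the electron carrier Fdx1 (-0.81 ± 0.11), and none in T3, where 5 were lower at an unadjusted p under 0.05. In sorted Six2 cells at E18.5 and in Foxd1 whole kidneys the 1 gene of this list that fell was the haem oxygenase Hmox1 (-1.42 ± 0.11 and -0.94 ± 0.079). Hmox1 is not itself an electron partner of P450 enzymes, and it is counted again among the NRF2 targets below. None of 8 was called in sorted Foxd1 cells or in sorted Six2 cells at E14.5, where 3 in each were past an unadjusted p of 0.05.

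Rises were called for 4.11% and 6.14% of all genes in sorted Six2 cells at E14.5 and E18.5 and for 3.63% in sorted Foxd1 cells. Of 17 other conjugating and oxidising enzymes, 6 fell in T1 and 8 in T3 whole kidneys of the Six2 line, among them the acetyltransferase Nat8 (-2.14 ± 0.35 and -2.78 ± 0.36) and the flavin monooxygenase Fmo1 (-1.53 ± 0.12 and -1.60 ± 0.12). In sorted Six2 cells at E14.5, 4 of 16 rose, with Fmo2 at 2.21 ± 0.28 and the epoxide hydrolase Ephx1 at 1.10 ± 0.16, and at E18.5 2 of 15 rose, the same Fmo2 and Ephx1 (0.73 ± 0.098 and 1.05 ± 0.10), while 6 fell. In Foxd1 whole kidneys 2 of 16 fell, and none of 10 was called in sorted Foxd1 cells, where none was past an unadjusted p of 0.05 either. Of 13 targets of NRF2, the factor that answers oxidants, 3 fell in T1 and 4 in T3 whole kidneys, 6 in sorted Six2 cells at E18.5 and 3 in Foxd1 whole kidneys, and in sorted Foxd1 cells 1 of 11, Me1, rose (1.13 ± 0.25). Of 12 receptors and regulators, 4 fell in each of T1 whole kidneys, T3 whole kidneys and sorted Six2 cells at E18.5, and Hnf4a fell in all of them (-1.46 ± 0.091, -1.72 ± 0.091 and -1.66 ± 0.19). The aryl hydrocarbon receptor Ahr rose in sorted Foxd1 cells (0.62 ± 0.12, adjusted p = 0.00195), and none of 11 was called in Foxd1 whole kidneys, where 1 was higher and 4 were lower at an unadjusted p under 0.05.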

How the data were processed

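Poly(A) RNA of 32 samples was sequenced as paired ends by the authors, from stranded libraries for whole kidneys and with a kit for ultra low input from sorted cells. The authors aligned reads to mm10 with HISAT2 and deposited raw counts per gene made with HTSeq without strand, in 1 table for each of 4 experiments; the annotation release is not given in the sources used here. The counts are whole numbers without normalization, and 0 columns were left unused. Gene names, lengths and positions came from GENCODE vM21 (GRCm38), and promoter windows from RefSeq.

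In R 4.3.3, edgeR 4.0.16 was used on the counts, with filterByExpr (minimum count 10, total 15), TMM scaling within each table and the quasi-likelihood test, with Benjamini-Hochberg adjustment over all genes tested. All adjusted p values and all SEs come from this test. Genotype calls needed an adjusted p under 0.05 with a change of more than 1.5-fold, development calls 0.01 and 2-fold, and interactions 0.05 alone. WT, T1 and T3 whole kidneys of the Six2 line shared 1 fit. Levels are CPM of the TMM-scaled library, and values after ± are SDs for levels and SEs for log2 differences. Levels per kilobase were divided by the exon length that a gene does not share with another gene. Folds against a group at or under 3 counts a library are limits, which cover counting error only. Alternatives were DESeq2 1.42.0, edgeR's exact test, other scalings and filters, a replicate block and the omission of each library, and summed near-identical genes. Scripts were tested on simulated data, and figures drawn in Python 3.11 with matplotlib 3.10.9.

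The genes, lists and tests were chosen with earlier results of these data known. Genes were named from a fixed list of 28, from the 8 called genes with the largest change in each direction and comparison whose groups did not overlap, and from the 5 highest per kilobase in each WT group; of other lists, at most 3 with the largest called change were named. Genes named outside this rule were chosen after their values were seen.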

Additional observations from a re-analysis of the deposited data

Results flagged for a closer look

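Gstt1 stood at 6.51 CPM in sorted Foxd1 WT number 4, below the 8.47 to 8.77 CPM of the other 3 WT libraries, with a gap of 0.867 of the group's range. Such a gap arises by chance in about 1 of 20 groups, and 32 groups and quantities were examined. All 4 T1 libraries remained above all WT libraries.

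The T1 difference in sorted Six2 cells changed between E14.5 and E18.5, by an interaction test, for these genes on the log2 scale. It was 0.45 for Cyp1b1, -2.31 for Gstt1, -1.94 for Cyp2s1, -1.91 for Cyp2u1 and -0.93 for Cyp2d22, which all differed at E14.5. It was -3.73 for Ugt2b5, -3.56 for Cyp27b1 and -0.66 for Mgst1, which differed at E18.5. The value of -7.34 for Gsta2 rests on E14.5 WT libraries at 0.

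At E18.5 the log2 T1 difference in sorted Foxd1 cells minus that in sorted Six2 cells was 4.05 for Cyp1a1, 3.59 for Ugt2b5, 3.21 for Cyp2d26, 3.20 for Cyp4a31, 2.96 for Ugt2b38, 2.80 for Ugt2b34, 2.33 for Ugt2b37 and 1.76 for Gstt1. It was below 0 for Cyp2j9 (-1.03), Cyp39a1 (-0.75) and Cyp2s1 (-0.57). The value for Cyp1a1 rests on Foxd1 WT libraries under 3 counts and is no measure of size.

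Between the Cre lines, whole kidney interactions were 3.00 for Cyp27b1, 2.78 for Cyp4a12b, 2.30 for Ugt1a9, 2.24 for Ugt2b38, 2.21 for Cyp4a32, 2.104 for Ugt2b5, 2.04 for Cyp2d26 and 1.99 for Cyp2c23, and -0.95 for Cyp4b1 and -0.39 for Cyp2s1. Experiment, sequencing run and line cannot be told apart there.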

How the results depend on the processing

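None of the 239 calls of named genes changed direction under the alternatives run for it. These refit the same counts and could hardly reverse a call, so this adds no support. Calls were lost more often. When some 1 library was left out, 5 of 10 named calls were lost in sorted Six2 cells at E14.5 and 4 of 26 at E18.5. In the same way 3 of 12 were lost in sorted Foxd1 cells and 3 of 19 in Foxd1 whole kidneys. For T3 against T1 the count of 0 calls became 7 without a low-count filter (1 higher, 6 lower), 1 with DESeq2, 3 with edgeR's exact test and 1 with the 2 genotypes fitted alone, and 0 to 1 with a library left out (1 without WT number 1 or WT number 2). Its genotypes differ in sex. The 32 calls of Six2 T1 whole kidneys ranged from 21 to 31 with 1 library left out, 21 being without T1 number 2, and were 21 without both libraries with liver RNA, a choice made after seeing the data. For sorted Six2 cells at E14.5 the 10 calls were 6 with genes over 1 CPM, which tests fewer genes, and 5 to 9 with 1 library left out. The Cre line interaction had 22 calls and 13 to 25 with 1 library left out, 13 without Six2 T1 number 1. The other ranges with 1 library left out were 25 to 33 for T3, 28 to 33 for sorted Six2 cells at E18.5, 42 to 47 and 34 to 36 for development in WT and T1, 9 to 13 for sorted Foxd1 cells and 18 to 21 for Foxd1 whole kidneys.

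Deviations of same-numbered libraries from their group means correlated at -0.0791 to 0.139. Libraries of different numbers were not compared in this way, so whether replicate numbers pair the samples was not settled. With a replicate block the calls were 31 for T1 and 33 for T3 in Six2 whole kidneys, 8 and 33 in sorted Six2 cells at E14.5 and E18.5, 12 in sorted Foxd1 cells and 21 in Foxd1 whole kidneys. DESeq2 lost 9 and scaling to library size 11 of the 239 calls, the block 14 of the 176 it was run on, and the exact test 1 of 184. When some 1 library was left out, 3 of 12 calls of the stage by genotype interaction and 6 of 19 of the lineage by genotype interaction were lost. The cause of these changes was not tested. The small sorted Foxd1 libraries limit what can be tested to 37 of the 144 genes.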

Other observations

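In WT sorted Six2 cells the sum of MGST genes was 49.8 to 56.9 CPM at E14.5 and 51.4 to 59.8 CPM at E18.5, and in T1 cells it was 52.8 to 57.3 CPM and 35.4 to 39.3 CPM. In sorted Foxd1 cells the GST sum was 1249.7 to 1367 CPM in WT and 1477 to 1613 CPM in T1, with no overlap, while the P450 sum was 418 to 449.5 and 359 to 417 CPM.

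Hmox1 was 238 to 346 CPM in sorted WT Six2 cells at E18.5 and 33.6 to 41.3 CPM in WT whole kidneys of the same line, in tables scaled separately.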
